A study of Mus musculus with 6 samples.

Results

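Chromosome 8 of the mouse carries genes of many kinds, and every transcription start that nuclear CAGE detected on it was examined here: 654045 of the 15373892 positions with at least 1 tag. A position was taken whenever it lay on this chromosome, in bins of 1 Mb. The chromosome itself was chosen by values of the comparison between the cell types, namely its share of promoters and of tags, so its overall level is described without a test. The study mapped contacts between RNA and chromatin and measured nuclear CAGE beside them, in 3 libraries from R08 cells (mESC) and 3 from oli-neu cells (mOPC). R08 cells grew without feeders in serum with LIF, and oli-neu cells in N2 medium with T3, thyroxine, bFGF and PDGF-BB. Each cell type was thus 1 line in its own medium, and no other treatment is given in the labels. The 3 libraries of each cell type share a library label of their own, so effects of preparation and of the line cannot be told apart. Nothing in the labels says that the 3 libraries came from separate cultures, so p-values may measure technical spread only. In bulk samples, fewer cells that express a gene and less RNA per cell cannot be told apart either.

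CAGE captures the capped 5′ end of an RNA, so a tag marks the base where transcription began. Most starts of a gene lie in its promoter, while starts on the opposite strand or away from genes can come from divergent promoters, enhancers, repeats and unannotated transcripts. Tags were classed here by annotated gene bounds. Those outside genes therefore include starts just upstream of an annotated 5′ end, as for Zfp42 and Jund. The 2 cell types stand far apart in identity: mESCs are pluripotent, and mOPCs are the dividing precursors of the cells that wrap axons in myelin. Among genes of chromosome 8 known from these states are Zfp42, also called Rex1, a zinc-finger gene used as a marker of naive pluripotency, Klf2, a factor of the naive state, and Cdh1, which encodes E-cadherin. The labels were checked first on markers of the whole genome. All 9 mESC markers were higher in mESCs, with summed levels of 2811 to 3139 CPM (tags per 1000000 tags of the library) against 3.65 to 3.74 CPM in mOPCs. All 8 mOPC markers were higher in mOPCs, at 1450 to 1559 CPM against 16.2 to 17.3 CPM. Of the mOPC markers Nkx2-2 was near absent, at 0.633 CPM in mOPCs. Markers of mature oligodendrocytes were higher in mOPCs for 4 of 5 genes, summing to 273 to 306 CPM against 15.7 to 16.5 CPM, led by Mbp (208 CPM). Of 3 neuron markers Syt1 (133 CPM) alone was higher in mOPCs, and the list summed to 122 to 151 against 10.5 to 11.03 CPM. Of 3 fibroblast markers Col1a1 was higher in mOPCs, Col3a1 had 1 tag in all and Col1a2 was at 0 in mOPCs, and the list summed to 9.62 to 12.2 against 1.79 to 1.98 CPM. Astrocyte markers (0 of 3 higher in mOPCs, Aqp4 at 0 there) summed to 0.757 to 0.867 against 9.37 to 11.3 CPM. The part of these lists in the results on chromosome 8 was not tested. Libraries held between 16657021 and 40928704 tags, and between 663930 and 2163190 of them lay on chromosome 8.

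The strongest start position within a promoter window is shown for 12 genes named in the results below. They are 3 of the genes whose level fell most in mOPCs, 5 of those that rose most and 4 of those with the highest level. Each sequence runs 5′ to 3′ on the strand of the gene and was cut from the RefSeq promoter windows of GRCm38.p6, from 40 bases before to 10 after the strongest position. Capitals mark the position with the most tags in mESCs and, where it differs and lies inside, in mOPCs, and in Ddx60 also a TATAAA run. In Fendrr, Inpp4b, Irf2 and Myo16 mESCs had fewer than 30 tags in the window, so the capital is the mOPC position. In Ankrd11 the first capital is the mOPC position and the next that of mESCs. Of the 24 genes named by level or fold change, 6 have no entry among the windows used here (Rab11fip1, Scrg1, Irx5, Gm20388, Ash2l and Vps35), and another 6 had less than 40 CPM there. The genes whose level fell in mOPCs are led by Zfp42, Mt2 and Triml2, at chr8:43306994-43307044, chr8:94172581-94172631 and chr8:43180493-43180543 on the minus, plus and plus strand:
Zfp42: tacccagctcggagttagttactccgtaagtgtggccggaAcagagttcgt
Mt2: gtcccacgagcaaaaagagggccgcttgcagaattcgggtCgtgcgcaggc
Triml2: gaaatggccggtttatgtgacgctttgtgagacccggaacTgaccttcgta

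The genes that rose in mOPCs are Fendrr (chr8:121083105-121083155, minus strand), Inpp4b (chr8:81342494-81342544, plus), Irf2 (chr8:46739738-46739788, plus), Myo16 (chr8:10153882-10153932, plus) and Ddx60 (chr8:61928080-61928130, plus):
Fendrr: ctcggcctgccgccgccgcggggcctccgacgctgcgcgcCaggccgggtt
Inpp4b: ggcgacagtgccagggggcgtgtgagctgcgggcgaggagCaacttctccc
Irf2: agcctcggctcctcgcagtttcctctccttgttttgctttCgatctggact
Myo16: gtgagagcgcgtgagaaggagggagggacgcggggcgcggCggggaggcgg
Ddx60: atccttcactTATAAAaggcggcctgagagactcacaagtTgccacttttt

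The genes of high level are Ankrd11 (chr8:123042243-123042293, minus strand), Mt1 (chr8:94179062-94179112, plus), Ankrd10 (chr8:11635745-11635795, minus) and Chd9 (chr8:90828796-90828846, plus):
Ankrd11: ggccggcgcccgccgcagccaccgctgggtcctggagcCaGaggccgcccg
Mt1: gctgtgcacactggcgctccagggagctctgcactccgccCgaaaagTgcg
Ankrd10: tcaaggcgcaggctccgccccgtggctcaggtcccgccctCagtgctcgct
Chd9: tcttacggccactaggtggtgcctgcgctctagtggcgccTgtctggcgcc

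In 10 of the 12 sequences the deposited position was a pyrimidine followed by a purine. This pair, at the last base before and the first base of the RNA, is the usual initiator of mammalian promoters, so it was counted over all windows with at least 30 tags in a cell type. On chromosome 8 it stood at the deposited position and the next base in 493 of 570 windows (86.5%) in mESCs and in 443 of 504 (87.9%) in mOPCs. At the base before and the deposited position it stood in 1.93% and 1.18%. Other autosomes gave 87.0% and 87.4% for the first placement, and 1.32% and 1.41% for the second. The windows themselves matched the transcript sequences of the annotation at all 1430 transcript 5′ ends on chromosome 8 that could be compared over 30 bases. In most windows the deposited position thus lay 1 base upstream of the purine, on chromosome 8 as elsewhere, and positions are given here as deposited. Why they do was not tested, and bins, genes and most promoters are wider than this offset.

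Promoters of chromosome 8 resembled those of the other autosomes in sequence. Over 1442 windows of 300 bases the median GC content was 54.0%, against 53.0% in 29954 windows elsewhere, and the observed over expected CpG ratio was 0.397 against 0.388. TATAAA, searched on both strands, occurred in 12.7% of the windows on chromosome 8 and 13.7% of the others, CCAAT in 39.9% and 37.2%, and GGGCGG in 36.9% and 35.9%. Where both cell types had tags, the strongest position of the window was identical in 307 of 461 windows on chromosome 8 (66.6%) and in 63.1% of the others. Ankrd10 was such a case: 71.9% of its window's tags in mESCs and 72.5% in mOPCs fell on 1 base. Ddx60 held 65.0% and 68.5% on its strongest base, 30 bases after the first base of TATAAA. In Ankrd11, Mt1 and Chd9 the strongest base differed between the cell types, but it held only 10.1 to 20.7% of the window's tags. That of Mt1 in mOPCs held 0.611 CPM. The windows of Mt1, Chd9 and Mt2 held 128, 46.8 and 44.2 CPM in mESCs, against 763, 389 and 124 CPM inside the genes. In mOPCs those of Inpp4b, Irf2 and Myo16 held 46.4, 59.9 and 42.0 CPM, against 80.6, 81.1 and 100 CPM. The strongest base of Mt2, Inpp4b and Myo16 held 5.46, 3.53 and 4.33 CPM in these cell types. The windows of Zfp42, Triml2 and Fendrr held more than the genes. A capital thus marks the strongest position of the window, which need not be the main start of the gene. Whether start sites changed was not tested.

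Chromosome 8 gave a smaller share of the tags in mOPCs in every class. Of the tags inside genes on their strand, it held 5.53, 5.48 and 5.46% in mESCs and 2.96, 2.94 and 2.97% in mOPCs, library by library. For tags opposite to genes the shares were 6.51, 6.61 and 6.69% against 4.0, 3.96 and 3.91%. For tags outside genes they were 6.27, 6.46 and 6.57% against 3.06, 2.99 and 3.03%. No mOPC library came near an mESC library, and the libraries of a cell type lay within 0.151 percentage points of each other as an SD. The log2 ratio of the mean shares (mOPC over mESC) was -0.89 inside genes, the lowest of the 19 autosomes, -0.74 opposite to genes, the third lowest, and -1.09 outside genes, the second lowest. These values chose the chromosome and support nothing further.

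Depth did not run in parallel with these shares: the deepest library was mOPC 3, with 40928704 tags, and the shallowest mESC 2, with 16657021. Chromosome 8 held 5.95, 5.98 and 5.96% of the positions with a tag in mESCs and 3.61, 3.53 and 3.52% in mOPCs. Counted by positions the difference was thus smaller than by tags, of which 5.71 to 5.72% and 3.00 to 3.03% lay on the chromosome. In mOPCs a position on chromosome 8 held 4.90 to 5.60 tags on average, against 5.89 to 6.56 on the rest of the genome. In mESCs it held 7.89 to 9.94 tags against 8.25 to 10.4. The strongest position took at most 1.02% of the chromosome's tags in any library.

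The next question was whether the lower level ran along the whole chromosome. Bins with a mean of at least 10 tags over the 6 libraries were compared after scaling to the genome-wide total of the class in each library. The median bin on chromosome 8 had a log2 ratio of -0.80 inside genes (113 bins), -0.60 opposite to genes (100 bins) and -0.93 outside genes (114 bins). Medians over all autosomal bins were 0.04, 0.42 and 0.06, so relative to them the chromosome lay at -0.84, -1.01 and -0.99. In each class this was the lowest median of the 19 autosomes. Chromosomes 7 and 14 came next, at -0.46 for chromosome 7 inside genes, -0.19 for chromosome 7 opposite to genes and -0.36 for chromosome 14 outside genes. Of the bins on chromosome 8, 75.2% inside genes, 63.0% opposite to genes and 75.4% outside genes had a lower mean in mOPCs, against 47.0, 36.9 and 46.8% of bins on the other autosomes. The median bin of chromosome 8 lay within the spread of bins elsewhere, as 22.3, 23.0 and 24.3% of the other autosomal bins lay below it. The range of single bins was not compared.

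**Figure D1:**
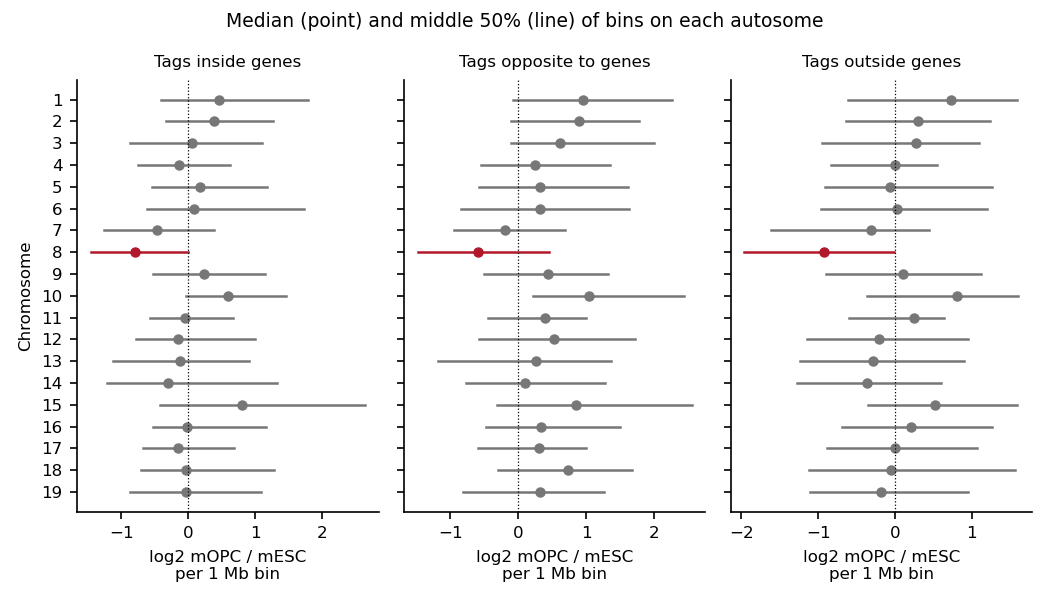
Log2 ratio of scaled tags (mOPC over mESC) per 1 Mb bin for each of the 19 autosomes (y axis), in 3 panels for tags inside, opposite to and outside genes. Points are medians and lines the middle 50% of bins; chromosome 8 (red) has the lowest median in each panel, at -0.80, -0.60 and -0.93.

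Running medians of 15 neighbouring bins were used to follow the level from the centromeric end onward. Every window on chromosome 8 lay below the median of all autosomal bins: 99 of 99 inside genes, 86 of 86 opposite to genes and 100 of 100 outside genes. On no other autosome did all windows lie below, where the highest shares were 85.2% inside genes (chromosome 12), 92.4% opposite to genes (chromosome 7) and 78.4% outside genes (chromosome 13). The running median on chromosome 8 went from -1.49 to 0.01 inside genes, from -1.24 to 0.15 opposite to genes and from -2.19 to 0.01 outside genes. No run of 15 neighbouring bins thus had a median at or above that of all autosomal bins, although single bins were often higher. Shorter runs could not be seen at this window length. The windows use the comparison that chose the chromosome, which favours low medians on it, so they are a description only. Of 91 bins that held all classes, 49 were lower in mOPCs in every class, 10 were higher in every class and 32 were mixed. Over bins, the log2 ratios inside and outside genes correlated with a Pearson r of 0.60 (Spearman 0.53, 102 bins), as a description of bins that come from the same libraries.

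**Figure D2:**
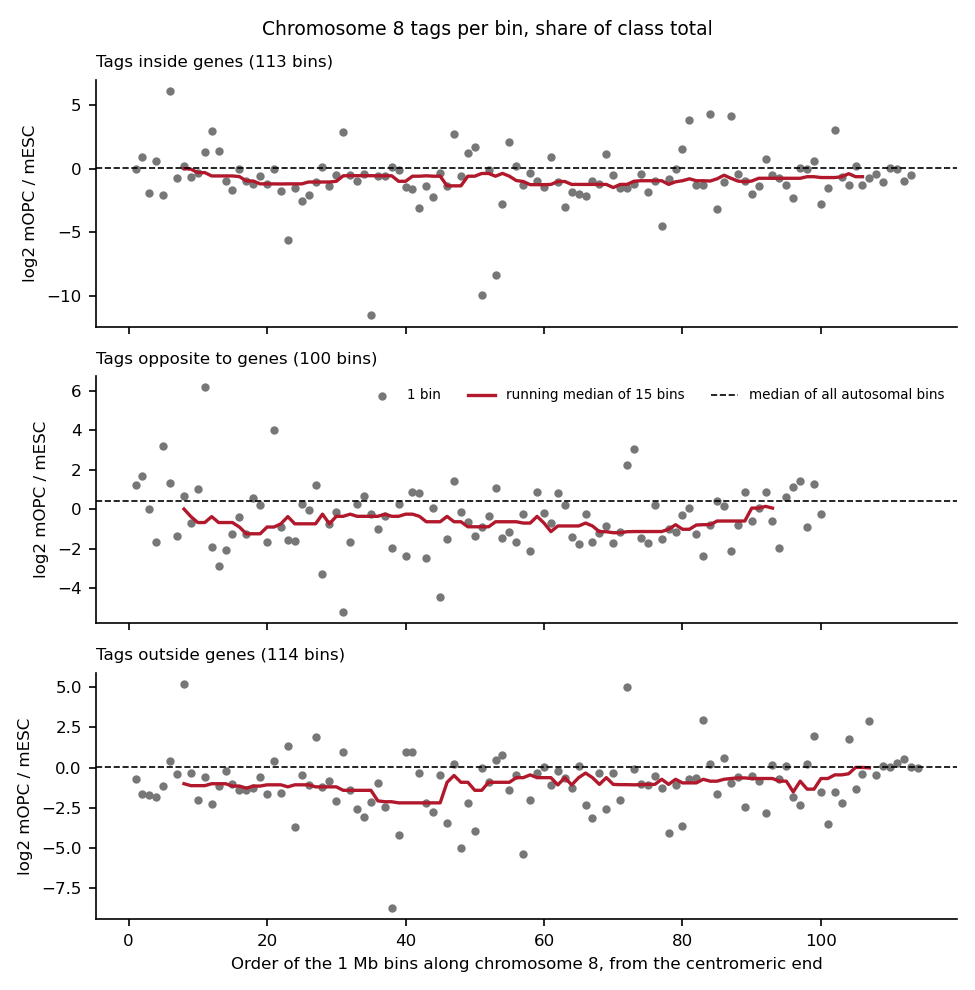
Log2 ratio of scaled tags (mOPC over mESC) of each 1 Mb bin (grey points) in order along chromosome 8, for tags inside, opposite to and outside genes. The red line, the running median of 15 bins, stays below the dashed line, the median of all autosomal bins, while single bins range from -11.55 to 6.18. The highest bin had 2, 0 and 1 tags in mESCs, and the lowest 1, 4 and 5 tags in mOPCs.

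In segments of 10 bins the picture was less even at both ends. Inside genes, 12 of 13 segments were lower in mOPCs, and segment 1 (chr8:1-10000000) was higher: scaled to class CPM (tags per 1000000 tags of the class in the library), it held 1519, 1481 and 1479 in mESCs and 2000, 1867 and 1899 in mOPCs. Insr, the receptor of insulin, and Map2k7, a kinase upstream of JNK, lie in it and were among the genes that rose. Opposite to genes, segments 1 and 2 were higher in mOPCs by 1.38 and 0.56 on the log2 scale, and segment 5 overlapped between the cell types. The median bins of segments 1 and 2 there were 0.63 and 0.68, above the 0.42 of all autosomal bins. Segment 13 opposite to genes stood at -0.81 as a sum, but its median bin was 0.34 and 4 of its 10 bins were lower. Outside genes, segments 5 and 6 were the lowest, at -2.33 and -3.51, and segment 13 alone was higher, by 0.15. Its median bin was 0.07, against 0.06 over all autosomal bins.

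Within a library the level of the whole chromosome cancels, so the share of each part of the chromosome could be tested. The proximal part (bins 1 to 43) held 23.6, 23.6 and 23.9% of the chromosome's tags inside genes in mESCs, and 27.7% in each of the 3 mOPC libraries. Its share was thus higher in mOPCs by 4.0 percentage points inside genes, and it was higher by 13.1 points opposite to genes. The middle part (bins 44 to 87) was lower in mOPCs by 2.91 points inside and 5.17 points opposite to genes, and the distal part by 1.09 and 7.92 points. Outside genes the differences were 1.17, -7.13 and 5.96 points in this order. In all 9 comparisons the libraries of the cell types did not overlap, which gives p = 0.1 in a two-sided exact permutation test, the smallest value that 3 against 3 libraries allow (adjusted 0.1 over the 9).

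Several of these shares rested on single bins. Bin 44, that of Zfp42, was left out after its values were seen. It held 8.15, 7.90 and 8.09% of the chromosome's tags outside genes in mESCs and 0.0363, 0.0469 and 0.0399% in mOPCs. Without it the proximal share outside genes was lower in mOPCs, at 27.1, 27.2 and 26.98% against 25.98, 26.5 and 25.8%, and the middle and distal differences shrank to -2.17 and 3.18 points. Leaving out each bin in turn left the proximal difference at 1.92 to 4.67 points inside and 9.80 to 14.6 points opposite to genes, the lowest value inside genes being that without bin 5. The middle difference ran from -4.22 to -1.90 points inside and from -9.38 to -3.82 points opposite to genes, and the distal one from -1.87 to 0.11 points (without bin 107) and from -10.5 to -2.52 points (without bin 124). Without the gene model Gm20388 the opposite-strand differences were 12.4, -9.22 and -3.21 points, and the proximal one outside genes was 0.43 points. With every position counted once, the distal share opposite to genes was higher in mOPCs, by 1.91 points. The higher proximal share inside and opposite to genes kept its direction in each of these settings, whereas the proximal share outside genes and the distal shares inside and opposite to genes did not.

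**Figure D3:**
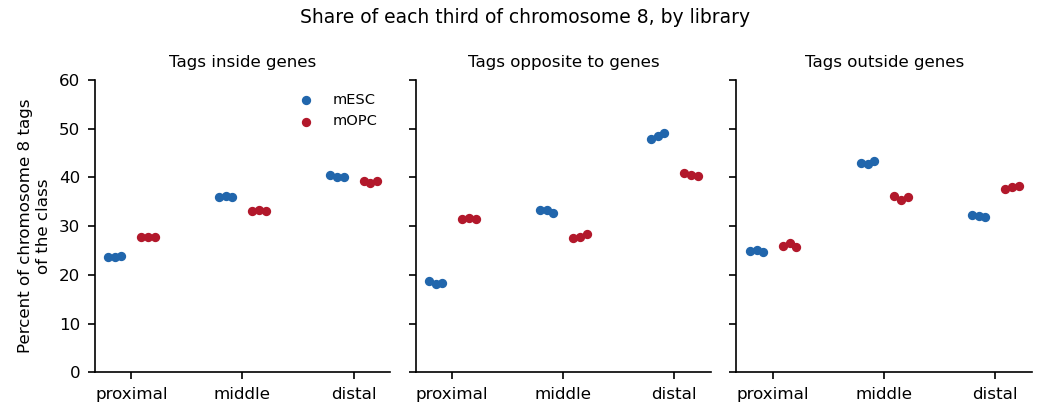
Percent of the chromosome 8 tags of a class (y axis) in its proximal, middle and distal parts, with 1 point per library, mESC in blue and mOPC in red. The mOPC points lie above the mESC points in the proximal part, by 4.0, 13.1 and 1.17 percentage points on average, and the last of these becomes -1.003 without bin 44.

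The classes also differed in how far their shares of the class total were lower. The share of chromosome 8 inside genes over that outside genes had a log2 ratio of -0.18, -0.24 and -0.27 in mESCs and of -0.05, -0.02 and -0.03 in mOPCs, higher in mOPCs by 0.20. For tags opposite to genes over those outside genes the difference was 0.35, and for inside over opposite -0.15. None of these overlapped between the cell types (two-sided exact permutation p = 0.1, the smallest possible, adjusted 0.1 over 3 tests). Without bin 44 the first stood at -0.076, -0.13 and -0.16 in mESCs and the difference was 0.092, and with every position counted once it turned to -0.032. The difference for opposite over outside genes was 0.24 without bin 44, and that for inside over opposite -0.30 without bin 124 and -0.29 without Gm20388. These ratios also carry the class totals, in which other chromosomes changed. Mean shares of chromosome 19 rose from 4.31 to 20.3% outside genes in mOPCs. They rose from 3.94 to 11.3% inside and from 2.92 to 4.07% opposite to genes. Relative to the median autosomal bin, chromosome 8 stood at -0.84 inside, -1.01 opposite to and -0.99 outside genes, another order of the classes. The part of the class totals in these differences was not tested.

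Bins that departed from the rest of their own chromosome were then sought with edgeR's quasi-likelihood test, after a scaling within each chromosome that removes its overall level. Of 112 bins inside genes on chromosome 8, 45 were lower and 55 higher than their chromosome (Benjamini-Hochberg adjusted p under 0.05, 89.3% called). Opposite to genes 43 of 101 were lower and 47 higher (89.1% called), and outside genes 53 of 114 were lower and 46 higher (86.8% called). Over all autosomes 91.0, 86.6 and 87.1% of bins were called this way, close to the shares on chromosome 8. The scaling centres the bins of each chromosome, so near-even splits into lower and higher are largely set by it. Without the TMM step of the scaling the split outside genes was 43 lower and 54 higher. Without the scaling within chromosomes, 77 bins inside genes were lower and 24 higher in mOPCs (45.5 and 46.7% of all autosomal bins). Opposite to genes 67 were lower and 24 higher (41.9 and 44.5% of all), and outside genes 80 were lower and 18 higher (42.2 and 44.9% of all), counts that the choice of the chromosome bears on.

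The lowest bin of every class was chr8:43000001-44000000, which holds Zfp42, Triml2 and Triml1, genes of the early embryo. Outside genes it held 5111, 5102 and 5310 class CPM in mESCs and 11.1, 14 and 12.1 in mOPCs. Inside genes it held 383, 389 and 407 against 0.0586, 0.178 and 0.157 class CPM, a log2 ratio of -11.55. Next came the bin of Apela, chr8:65000001-66000000, at -8.39 inside, -4.43 opposite to and -5.37 outside genes, and the bin of Sgo2b, chr8:63000001-64000000, at -9.93 inside genes. The remaining bins among the 3 lowest of a class were chr8:39000001-40000000 around Tusc3 (-3.29 opposite to genes) and chr8:54000001-55000000 around Spcs3 and Vegfc (-4.98 outside genes).

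At the other extreme, the bin of Myo16 and Irs2 (chr8:10000001-11000000) was among the highest in each class. Inside genes it held 2.45, 2.73 and 1.77 class CPM in mESCs and 156, 157 and 163 in mOPCs, a log2 ratio of 6.10, and outside genes the ratio was 5.20. Other high bins were one within Csmd1 (chr8:16000001-17000000, 6.18 opposite to genes, on 2, 0 and 1 tags in mESCs) and that of Mak16 and the 3′ end of Nrg1 (chr8:31000001-32000000, 4.03 opposite to genes). The bin of Inpp4b (chr8:81000001-82000000) stood at 4.97 and that of Irx5 and Crnde (chr8:92000001-93000000) at 2.96 outside genes. The bin of Cdh11 (chr8:102000001-103000000) stood at 4.13 and a bin of unnamed lncRNAs (chr8:96000001-97000000) at 4.30 inside genes, the latter on 3, 0 and 1 tags in mESCs.

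Genes on chromosome 8 were compared next, as the sum of tags inside each annotated gene on its strand. Starts upstream of the annotated gene are not in these sums, so gene levels and rankings leave them out. In mESCs Triml2 held 47.5 CPM inside the gene and 257 CPM in its promoter window. Jund had a mean of 6.05 CPM inside the gene, and its promoter just upstream 168 CPM in mESCs and 231 CPM in mOPCs. The annotation holds 1765 protein-coding and lncRNA genes there, of which 294 had no tag in any library and 957 passed the filter on low counts. In edgeR's quasi-likelihood test over all genes, 608 of them (63.5%) were lower and 265 (27.7%) higher in mOPCs at a Benjamini-Hochberg adjusted p under 0.05. Of the 18283 genes tested genome-wide 46.1% were lower and 44.6% higher, and nothing is read from the counts, since the comparison chose the chromosome. The median log2 fold change was -0.89, with the middle 50% from -2.48 to 0.49, against 0.04 on the other autosomes (-1.69 to 1.58). Chromosome 7 followed at -0.52, and the highest chromosome, 1, stood at 0.72. For 32 genes 1 cell type had no tag, and taking them at the bound that 3 counts allow left the median at -0.89.

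Genes were also split by kind, level and length. Protein-coding genes on chromosome 8 had a median of -0.98 (792 genes) against -0.11 elsewhere, and lncRNA genes of -0.02 (165 genes) against 0.99. By mean level over the 6 libraries, genes in the lowest quartile (up to 2.42 CPM) stood at -1.64 against -0.34, those up to 16.3 CPM at -0.46 against 0.19, those up to 48.8 CPM at -0.78 against 0.25, and those above at -1.09 against -0.13. Genes under 10 kb stood at -1.15 against -0.07, genes of 10 to 50 kb at -0.86 against -0.17 and longer genes at -0.49 against 0.51. In each of these groups the median of chromosome 8 lay below that of the other autosomes. The comparison chose the chromosome, so these medians are a description only.

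Of the genes that fell most, several are known from pluripotent cells. Zfp42 (ENSMUSG00000051176.6, chr8:43295063-43306980) held 8997, 4113 and 4787 tags inside the gene in mESCs and none in any mOPC library, at least 7496-fold lower by the bound of 3 counts over the pooled tags. Triml2 had 1905, 771 and 846 tags against none (at least 1475-fold lower). Apela encodes a short peptide hormone of the early embryo that binds the apelin receptor, and had 5369, 2062 and 2103 tags against 0, 1 and 0, a ratio of 11980 with a 95% exact binomial interval of 2150 to 473227. Sgo2b, a shugoshin-type gene, had 5133, 2838 and 2886 tags against 0, 0 and 1, a ratio of 13642 (2448 to 538888). These bounds and intervals cover counting error only. Map10, whose product binds microtubules (at least 1180-fold lower), Rab11fip1, an effector of the recycling GTPase Rab11 (at least 1024-fold), and Cyba, a subunit of NADPH oxidase (at least 390.4-fold), had no tag in mOPCs either. Apela and Rab11fip1 overlap other genes on their strand (Gm45886 and Gm45266), whose tags cannot be separated from theirs.

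The genes that rose most are known from different settings, and no theme was tested over them. Scrg1, first found among transcripts raised in prion disease of the brain, had no tag in mESCs and 864, 1113 and 1577 in mOPCs, at least 942.8-fold higher. Fendrr, a lncRNA beside Foxf1, had 0, 0 and 1 tags against 1012, 1166 and 1899, a ratio of 3245 (95% exact binomial interval 582 to 128187). Myo16, a myosin of neural cells, stood at 1.00, 0.660 and 0.705 CPM in mESCs and at 100.1, 97.6 and 104 CPM in mOPCs. Its fitted log2 fold change was 6.76 ± 0.14 (SE; edgeR's quasi-likelihood test, Benjamini-Hochberg adjusted p = 3.6e-63). Inpp4b, a phosphatase of phosphoinositides, rose by 7.79 ± 0.17, Irf2, an interferon regulatory factor, by 7.14 ± 0.15, and Ddx60, a helicase induced by interferon, by 6.15 ± 0.12. Enpp6, an enzyme of newly forming oligodendrocytes, stood at 0.185, 0.180 and 0.0543 CPM against 12.5, 14.2 and 14.3 CPM, and Irx5, a homeobox factor, rose by 6.15 ± 0.23. All libraries of 1 cell type lay above all of the other for these 16 genes, as the rule for naming them required.

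Genes of the highest mean CPM over the 6 libraries were nearly all lower in mOPCs. Of tested genes above 48.8 CPM, 78.0% on chromosome 8 and 53.3% on the other autosomes had a fitted change below 0. The comparison chose the chromosome, so nothing is read from this. Ash2l, a subunit of histone H3 lysine 4 methyltransferase complexes, held 672, 663 and 693 CPM in mESCs and 101, 91.3 and 89.7 CPM in mOPCs, a log2 fold change of -2.98 ± 0.09. Vps35, of the retromer that sorts endosomal cargo, held 632, 614 and 625 CPM against 101, 96.6 and 99.3 CPM, and Lamp1, a protein of the lysosomal membrane, 635, 573 and 578 CPM against 108, 115 and 109.7 CPM. Each of these stood several fold apart with no overlap. Ankrd11, a chromatin regulator, fell by 1.87 ± 0.09 and Chd9, a chromatin remodeller, by 1.06 ± 0.08, while Ankrd10 stood at 344, 310.3 and 340.4 CPM against 257, 282 and 317 CPM. For Ankrd10 the cell types overlapped, although its fitted change of -0.34 ± 0.08 had an adjusted p of 1.35e-04 in edgeR's quasi-likelihood test. The gene model of highest count, Gm20388, spans 4434882 bases (chr8:119910841-124345722) and sums the tags of the many genes it overlaps, so its level of 2179 ± 21.5 CPM in mESCs and 1677 ± 29.8 CPM in mOPCs (SD, n = 3) describes that stretch rather than a gene.

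**Figure D4:**
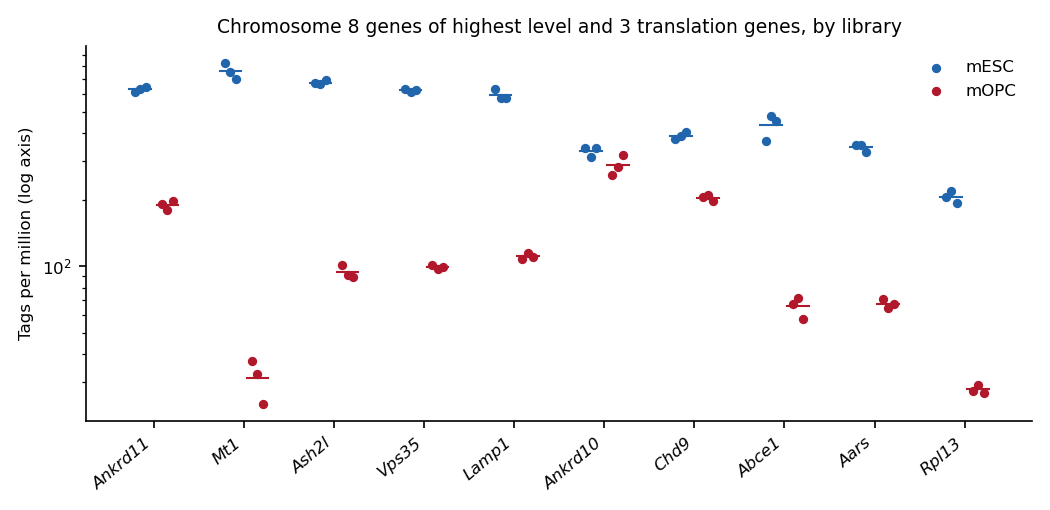
CPM (log axis) in each of 3 mESC (blue) and 3 mOPC (red) libraries for 7 chromosome 8 genes of the highest level and 3 genes of translation; lines mark means. The cell types overlap for Ankrd10 alone, and the red points of the other genes lie below the blue ones.

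Genes with shared roles were taken by lists, whose members were chosen with earlier results of these data known. Their counts stand beside the shares given above, 46.1% lower and 44.6% higher over all genes tested and 63.5% and 27.7% on chromosome 8. Of 12 genes of the ribosome and translation, 12 were lower in mOPCs and none higher, with a median log2 fold change of -2.40. Rpl13, a protein of the large ribosomal subunit, held 206, 219 and 193 CPM against 27.4, 29.1 and 26.8 CPM. Abce1, a ribosome recycling factor, fell by 2.85 ± 0.09, and Aars, the alanyl-tRNA synthetase, by 2.48 ± 0.09. Ribosomal protein genes have many processed copies, so unique alignment could leave out part of their tags. Rpl13 also lies inside Gm20388, while Aars overlaps Exosc6.

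Of 22 genes of DNA replication and repair, 20 were lower and 2 higher (46.1 and 44.6% over all genes tested), with a median of -2.02. Neil3, a DNA glycosylase, stood lowest at -9.67, followed by Gins2 and Mcm5 of the replicative helicase (-3.99 and -3.83) and by Cdt1, which loads it (-3.63). Rnaseh2a, a subunit of RNase H2, fell by 2.22 ± 0.08. Mau2, a loader of cohesin, rose from 43.0, 34.5 and 36.9 CPM to 118, 106 and 113 CPM. Nek1 overlapped between the cell types, at 70.6, 70.5 and 77.7 against 62.3, 72.3 and 72.4 CPM, and its change of -0.20 no longer passed without mESC 3 (-0.18) or without mOPC 1 (-0.11).

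Chromatin regulators gave 18 lower and 3 higher of 22, with a median of -1.55. Brd7, a bromodomain subunit of PBAF, fell by 1.92 ± 0.08 and Prmt7, an arginine methyltransferase, by 2.05 ± 0.08. Nsd3, a histone methyltransferase, stood at 0.45 and Sin3b, a corepressor, at 0.01, which did not pass the test. Of 12 tested genes of mitochondrial energy metabolism, 10 were lower and 1 higher, with a median of -1.57. Cox4i1, a subunit of cytochrome c oxidase, held 258, 275 and 243 CPM against 32.9, 37.9 and 33.3 CPM, and Got2, the mitochondrial aspartate aminotransferase, fell by 2.91 ± 0.09. Slc25a4, the ADP/ATP carrier, and Cyb5b, a cytochrome b5 of the outer membrane, fell by 0.85 ± 0.08 and 1.45 ± 0.08. All 3 tested metallothioneins, which bind zinc and copper, were lower: Mt1 held 832, 755 and 702 CPM against 37.4, 32.7 and 23.9 CPM, Mt2 had 4976, 1986 and 2211 tags against none (at least 3842-fold lower), and Mt3 stood at -0.94. In each of these lists the median lay below that of all tested genes on the chromosome (-0.89). Members were chosen with earlier results of these data known, so nothing is read from this.

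Lists of cell identity moved in both directions. Of 8 genes of pluripotency and the early embryo, 6 were lower and 2, Nanos3 and Dand5, were higher. Klf2 held 534, 501 and 422 CPM against 5.29, 4.82 and 3.25 CPM, and Sall1, a zinc-finger repressor, fell by 4.59 ± 0.10. Cadherins, which hold neighbouring cells together, parted: Cdh1 had 10869, 5420 and 5544 tags against 70, 93 and 92, and Cdh3, P-cadherin, 588, 277 and 320 against 1, 1 and 3. Cdh13, T-cadherin, rose from 1.74, 1.62 and 1.63 CPM to 15.7, 16.2 and 17.1 CPM, and Cdh15, M-cadherin, which overlaps Gm20388, rose by 2.48 ± 0.18. Cdh11 rose by 4.12, so that 3 of 5 tested cadherins were higher.

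Of 28 tested genes of the neural and oligodendrocyte lineage, 13 were lower and 13 higher, with a median of -0.10. Gnao1, the G protein subunit abundant in brain, held 5.12, 7.08 and 6.19 CPM against 97.7, 111 and 112 CPM. Nrg1, a ligand of ErbB receptors, was lower, at 147, 173 and 161 CPM against 28.3, 31.1 and 20.9 CPM, and Adgrl1, a latrophilin, stood at -0.84. Tubb3, a neuronal tubulin that overlaps Gm20388, stood at -0.61 with overlapping libraries, and Ncan, the matrix protein neurocan, at 1.34. Sox1, a factor of neural progenitors, and Unc5d, a netrin receptor, stood at -6.92 and -4.74.

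Signalling and immediate early genes gave 10 lower and 8 higher of 19, near the shares over all genes tested (46.1 and 44.6%), with a median of -0.45. Insr held 33.8, 36.7 and 41.7 CPM against 105, 111 and 114 CPM, and Map2k7 rose by 1.92 ± 0.08. Fgfr1, a receptor of fibroblast growth factors, fell by 0.45 ± 0.09, but by tags near its annotated 5′ ends alone stood at -0.087 and did not pass. The bFGF and PDGF-BB of the mOPC medium and the LIF of the mESC medium differ with the cell type, and their part in these values cannot be told apart from it. Of 11 genes of adhesion and matrix, 8 were lower and 3 higher, with a median of -1.12: Col4a1, a collagen of basement membranes, held 262, 257 and 243 CPM against 1.46, 1.91 and 1.47 CPM, and Itgb1, integrin beta 1, Adam9, a metalloprotease, and Fat1, an atypical cadherin, stood at -1.12, -0.90 and -0.76. Immune genes gave 4 lower and 4 higher of 9 tested, with Ikbkb, a kinase of the NF-kappaB pathway, at 0.77, Cyld, a deubiquitinase of that pathway, at 0.30 and Bst2, the antiviral tetherin, at -3.52. Of 6 tested genes of lipid metabolism 4 were lower and 2 higher: Msmo1 and Mvd, of sterol synthesis, stood at -0.76 and -0.62, Acsl1, an acyl-CoA synthetase, at 0.76, and Lpl, lipoprotein lipase, had 665, 407 and 471 tags against 0, 0 and 1, a ratio of 1939 (95% exact binomial interval 347 to 76629).

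**Figure D5:**
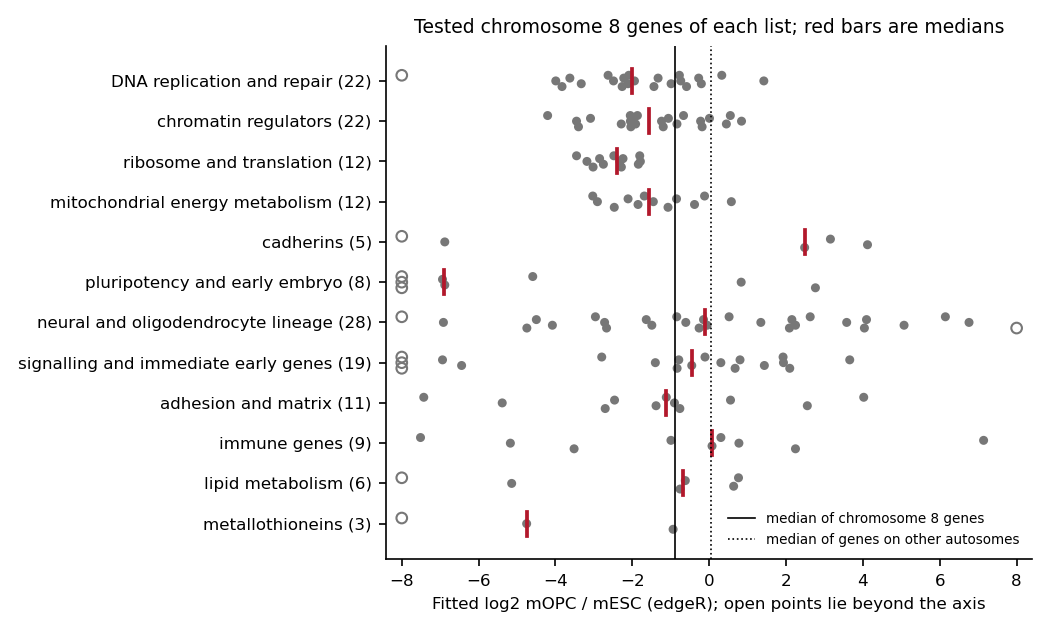
Fitted log2 fold change (mOPC over mESC) of the tested chromosome 8 genes of 12 lists, 1 point per gene, with red bars at list medians; open points lie beyond the axis. Medians of translation (-2.40), replication (-2.02) and chromatin genes (-1.55) lie left of the solid line, the median of all tested chromosome 8 genes (-0.89), and that of cadherins (2.48) lies right of it. List members were chosen with earlier results of these data known, so the medians are a description only.

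Clusters of tissue-restricted genes were nearly silent in both cell types. None of the 46 defensin genes, antimicrobial peptides of gut and skin, passed the filter, and 40 of them had no tag; the list held 9 tags over all libraries. The 19 carboxylesterase genes, which act mainly in liver and gut, held 63 tags. No direction can be read from so few tags. Members of such families resemble each other, and loss of tags by unique alignment was not tested. The genes of highest level among them, Defb9, Defb4, Defb39 and Defb1, and Ces1a, Ces2h, Ces4a and Ces2f, had a mean of at most 0.256 CPM in either cell type. Mt4, at 0.341 CPM in mESCs and 0 in mOPCs, was not tested either.

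Promoters, clusters of positions of at least 1 TPM joined up to 20 bp, were examined last. Clustered per cell type, 1597 of 26604 promoters (6.00%) lay on chromosome 8 in mESCs and 1247 of 28360 (4.40%) in mOPCs, values that chose the chromosome. Over both cell types 1959 of 38722 lay there, and 1862 passed the filter. In edgeR's quasi-likelihood test 1209 of them were lower and 482 higher in mOPCs (adjusted p under 0.05), beside 45.7 and 45.6% of all promoters. By class, the median log2 fold change was -1.32 for 1236 promoters inside genes, -0.81 for 158 opposite to genes and -2.41 for 468 outside genes. Near annotated 5′ ends (within 500 bp) it was -1.21 for 1509 promoters, and away from them -7.36 for 353. Before the filter, promoters away from these ends had a median width of 1 base, and 195 of 394 had no tag in mOPCs. Those near them had a median width of 11 bases, and 200 of 1565 had no tag in mOPCs. Of 1959 promoters, 395 had no tag in mOPCs and 118 none in mESCs, so a fitted median of such promoters is not a measured fold.

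The strongest promoters outside genes all lay within 127 bp of an annotated gene on the same strand, so this class holds starts just upstream of annotated 5′ ends. The first was that of Zfp42 (chr8:43306956-43307058), 24 bp upstream of the gene, with 597, 614 and 622 CPM in mESCs and no tag in mOPCs. That of Jund, an AP-1 factor, at chr8:70698934-70698941, 13 bp upstream of the gene, was the only one of the 6 not lower: it held 196, 150.4 and 158 CPM in mESCs and 257, 197 and 239 CPM in mOPCs. Its cell types did not overlap by a small margin, and its fitted change of 0.17 ± 0.10 did not pass the test (adjusted p = 0.106, edgeR's quasi-likelihood test). The other 4 lay beside the pseudogenes Gm9892, Gm8730, Gm10033 and Gm10060. Beside Gm9892 (chr8:52197183-52197185) 298, 477 and 516 CPM fell to 10.3, 18.9 and 17.5 CPM, with 1 mESC library apart from the other two, and beside Gm8730 (chr8:102865864-102865877) 327, 329.8 and 362 CPM fell to 47.2, 47.6 and 39.6 CPM. At Gm10033 (chr8:69395497-69395572) and Gm10060 (chr8:19784624-19784663) the fitted falls were -3.13 ± 0.11 and -2.04 ± 0.11. Processed pseudogenes are near copies of other genes, so tags there could come from the parent gene.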

How the data were processed

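Nuclear RNA of 3 mESC (R08) and 3 mOPC (oli-neu) libraries was measured by CAGE. The deposited values are counts, made by the authors as the number of tags starting at each position of a strand of mm10, without normalization. The study's methods name bowtie with unique alignments, while the processing notes of the submitters name CASAVA 1.8 and BWA 0.5.9, so the aligner is uncertain. Chromosome 8, its gene lists and the tests were chosen with earlier results of these data known.

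Positions were assigned to GENCODE vM21 genes on GRCm38 (the study used an earlier release) as inside a gene on its strand, opposite to one or outside, in 1 Mb bins scaled to the class total of the library. Genes that overlap on 1 strand each received the shared tags. CPM refers to all tags of a library. Bins, genes and promoters over all autosomes or chromosomes were tested with R 4.3.3 and edgeR 4.0.16 (robust quasi-likelihood, TMM, filterByExpr, Benjamini-Hochberg adjusted p under 0.05), and SEs follow from the fold change and the F statistic. Fold changes are mOPC over mESC. For bins relative to their chromosome, TMM factors were computed within each chromosome. Promoters follow the study's power-law TPM and 20 bp clustering. Other steps used Python 3.11.15 (scipy 1.17.1, pandas 2.3.3, numpy 2.4.6), and the fits were tested on simulated data. DESeq2 1.42.0 was an alternative.

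Named were, on chromosome 8, the 8 genes with the largest fold change in each direction among those past the threshold, without overlap of libraries and with a mean of 10 CPM or more where higher. Added were the 8 genes and 6 promoters outside genes of highest mean CPM, the 4 of highest mean CPM per list and the 3 lowest and highest bins per class. Neil3, Gins2, Mcm5, Cdt1, Nsd3, Sin3b, Tubb3, Ncan, Sox1, Unc5d, Cdh11, Nanos3 and Dand5 were chosen after their values were seen. Some list members are not reported here. Where a cell type had no tag, bounds use 3 counts over its pooled tags.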

Additional observations from a re-analysis of the deposited data

How the results depend on the processing

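Leaving out each library in turn turned no direction of the tag shares, median bins, shares by part, class differences or named genes. It gave tag shares (log2) of -0.90 to -0.89 inside, -0.75 to -0.73 opposite to and -1.11 to -1.07 outside genes, median bins of -0.86 to -0.74, -0.64 to -0.48 and -0.97 to -0.88, and shares of lower bins of 73.0 to 75.9%, 64.0 to 65.3% and 73.7 to 76.3%, in the same order. It also gave 606 to 628 genes lower and 257 to 273 higher, and promoter shares from single libraries were 6.04, 6.05 and 6.09% in mESCs and 4.38 to 4.47% in mOPCs. With every position counted once, tag shares were -0.76, -0.66 and -0.72, the median bin outside genes was -0.57, and lower bins made up 83.3, 73.0 and 72.6%. In that setting the distal share opposite to genes reversed to 1.91 percentage points and the ratio inside over outside genes to -0.032, and the cause was not tested. Without the 100 strongest positions, tag shares were -0.80, -0.81 and -0.92. Without tags near annotated 5′ ends they were -1.24, -0.62 and -1.29, the median bins -0.996, -0.45 and -0.65, and the lower bins 81.8, 64.6 and 66.4%. Without Gm20388, an alternative chosen after seeing the data, the share was -0.62 opposite to and -1.05 outside genes. Without bin 44, also chosen after seeing the data, it was -0.97 outside genes, and the proximal share outside genes reversed to -1.003 percentage points. Scaled to the median autosomal bin, bins stood at -1.01 opposite to genes (75% lower) and -0.99 outside (77.2%). Bins of 500 kb gave -0.59 inside and -0.51 opposite to genes, and 66.8, 59.6 and 68.2% lower. Bins of 2 Mb gave -0.85 outside genes, and 82.0, 72.4 and 87.1% lower. Without a filter the median outside genes was -0.72, and 65.3% opposite to and 73.0% outside genes were lower. With at least 50 tags the median inside genes was -0.87 and 65.1% were lower opposite to genes, and thinning to the smallest library gave 64.6% there. Promoter shares were 6.21% in mESCs at 3 TPM, and 6.06 and 4.57% with joining up to 100 bp. Counts of calls stayed within 1.5 times, but bins relative to their own chromosome opposite to genes split 45 lower and 44 higher without mOPC 3, against 43 and 47. The replicate block, whose numbers do not pair the libraries (correlations of 0.02, 0.02 and -0.01 between libraries of the same number), gave 610 genes lower and 262 higher, 1200 promoters lower and 481 higher, and DESeq2 656 genes lower and 279 higher. Defensins and carboxylesterases had too few tags to read a direction.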
